A study of Mus musculus with 6 samples.

Results

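A set of 10 transcription factor genes, grouped under the label of neural tube progenitor factors, was followed in urogenital ridges with and without the Wilms tumour gene Wt1. They are Dbx1, Dbx2, Nkx2-2, Nkx6-1, Olig2, Irx3, En1, Hmx1, Nhlh2 and Myt1. Their probes were found by gene symbol in the array's annotation, dim probes included, which gave 10 of the 20289 probes. These stand for 9 of the 10 genes. Dbx2 has 2 probes, and Nkx6-1 was matched by no probe, by symbol or by Entrez identifier, and is not analysed here. The ridges were dissected at E11.5 from Mf1 mouse embryos with 11 to 12 tail somites. The genotypes were wild type and homozygous deletion of Wt1. Each genotype had 3 single-colour CodeLink oligonucleotide arrays, each with RNA of 5 embryos, 4 female and 1 male. Whether arrays of the same genotype had separate pools of embryos is not stated, so all p-values rest on array-to-array spread that may be purely technical.

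The neural tube is divided along its dorsoventral axis into bands of dividing progenitors, each marked by its own set of transcription factors. Homeodomain factors such as Dbx1, Nkx2-2 and Irx3 and the helix-loop-helix factor Olig2 set these bands in response to Sonic hedgehog from the floor plate and to BMP and Wnt signals from the roof plate, and many of them repress one another across a boundary. As cells leave the cycle they switch to neuronal factors such as Nhlh2 and Myt1. Not all of the genes are restricted to the neural tube. Nkx2-2 and Myt1 also act in endocrine cells of the pancreas, En1 in the dermomyotome and limb ectoderm, Hmx1 in cranial and sympathetic ganglia, and Irx3 in several mesodermal tissues. In RNA from whole ridges, more cells of a type and more RNA per cell cannot be told apart.

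The deposited values are intensities in arbitrary units, with an array median between 0.956 and 0.966. An intensity of 0.217, the 25th percentile of the probes' mean log2 values, is called the dim limit below. Signal under it was not read as expression. All 20088 probes with values on at least 2 arrays of each genotype were compared with limma, and a probe was called at an adjusted p under 0.05. Over the array 17.3% of the probes were called higher in the knockout and 12.1% lower, and the median log2 change (knockout minus wild type) was 0.14. The log2 values of arrays of the same genotype correlated at r = 0.986 in wild type and at 0.974 in the knockout, across probes, which are not independent replicates. The median SD of log2 values between arrays was 0.126 for wild type and 0.204 for the knockout. The brighter of the Wt1 probes fell in the knockout, with 42.3 ± 2.77 in wild type and 14.7 ± 0.788 in the knockout (SD, n = 3 each). The position of the probe relative to the deletion is not given in the sources used here.

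Of the 10 probes, 7 were called higher in the knockout, 0 were called lower and 3 were not called. Beside these counts stand the 17.3% and 12.1% of all probes. The 7 stand for Dbx1, Hmx1, Nkx2-2, Nhlh2, Myt1, En1 and, on the dimmer of its probes, Dbx2. Without a multiple-testing adjustment the counts were the same, with 7 higher and 0 lower at an unadjusted p under 0.05. On these 7 probes all 3 knockout arrays lay above all 3 wild-type arrays, a pattern seen at 26.7% of all probes with 6 values. The median log2 change of the 10 probes was 1.72, and 0.88 with 0.5 added to the intensities in place of the floor. In wild type 6 of the 10 probe means lay under the dim limit, and in the knockout 1 did. Among all 5295 probes whose wild-type mean lay under that limit, 4.76% were called higher in the knockout. A filter on the mean over the 6 arrays would have kept 8 of the 10 probes, 4 of them through their knockout signal alone, so no such filter was applied.

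**Figure D1:**
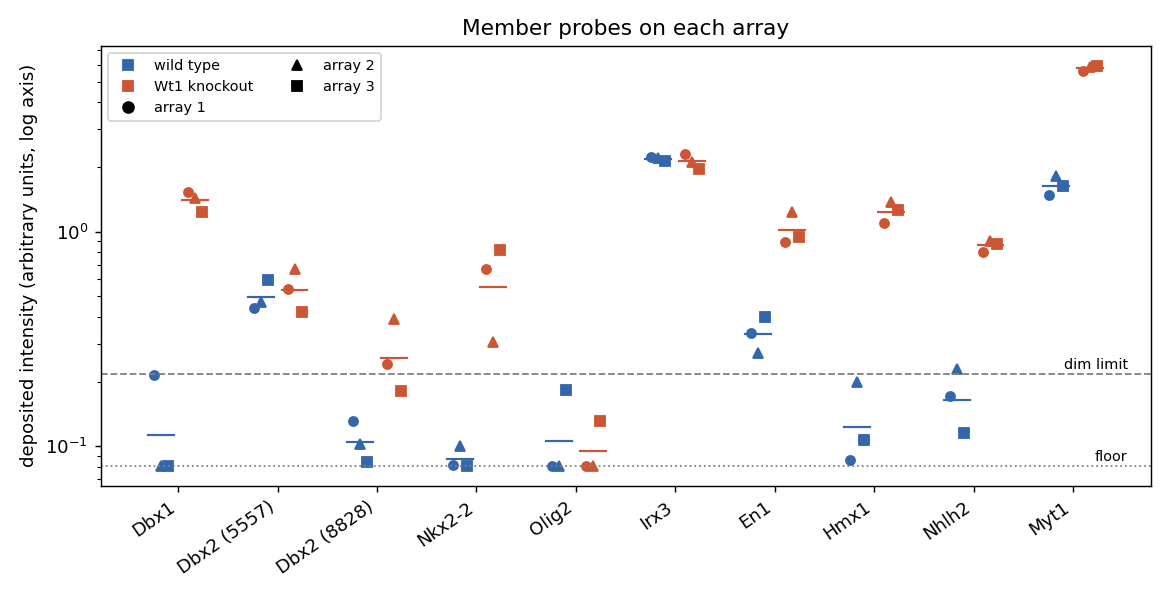
Deposited intensity (log axis, arbitrary units) of each member probe on each array, with 3 wild-type arrays in blue and 3 Wt1 knockout arrays in orange. Bars are means of log2 values, and values under the floor of 0.0811 are drawn at it. Dbx1, Hmx1, Nhlh2 and Nkx2-2 lie near or under the dim limit of 0.217 in wild type and above it on every knockout array, while the genotypes overlap for Irx3, Olig2 and Dbx2 probe 5557.

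Dbx1, which marks a narrow intermediate band of progenitors that gives rise to commissural interneurons, was called higher in the knockout. Its probe read 0.215, 0.0146 and 0.0652 on wild-type arrays 1 to 3 and 1.54, 1.43 and 1.24 on knockout arrays 1 to 3. Every wild-type value was under the dim limit and every knockout value was far above it. The knockout mean was therefore at least 6.44-fold above the limit, with a log2 change of 3.64 ± 0.37 (SE, limma, adjusted p = 3.18e-05). On wild-type arrays 2 and 3 the value lay under the floor, so the exact log2 change depends on the floor and only the bound is a measured fold.

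Its close relative Dbx2, which is expressed in a broader band around the same position, was measured by 2 probes that differed. Probe 5557, the brighter of the pair, read 0.441, 0.469 and 0.597 in wild type and 0.542, 0.667 and 0.423 in the knockout. These arrays overlapped, and the log2 change was 0.10 with a 95% interval from -0.42 to 0.63 (limma, adjusted p = 0.788). Probe 8828 read 0.131, 0.103 and 0.0843 in wild type and 0.242, 0.390 and 0.181 in the knockout. The genotypes did not overlap there, but knockout array 3 stayed under the dim limit, and the knockout mean was only at least 1.19-fold above it. Its log2 change of 1.31 ± 0.42 passed narrowly (limma, adjusted p = 0.0377). That call was lost when any single array other than knockout array 3 was left out, and also under quantile normalization, with an added 0.5 in place of the floor, and with values at or below 0 left out, at adjusted p from 0.0558 to 0.120. Neither Dbx2 probe has a RefSeq transcript as its annotated target, which also holds for the Dbx1 probe and for none of the other measured members.

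Nkx2-2 marks the most ventral progenitors beside the floor plate and is also required for pancreatic beta cells. Wild-type arrays gave 0.0817, 0.100 and 0.050, all under the dim limit. Knockout arrays gave 0.672, 0.306 and 0.818, so array 2 was well under the others, and the highest value was 2.67 times the lowest. The log2 change was 2.66 ± 0.41 (SE, limma, adjusted p = 5.31e-04), and the knockout mean was at least 2.54-fold above the dim limit.

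Olig2, the factor of motor neuron progenitors and later of oligodendrocytes, is patterned next to Nkx2-2 in the ventral tube. It read -0.00748, 0.0516 and 0.182 in wild type and 0.00883, 0.0422 and 0.131 in the knockout. All 6 values were under the dim limit, so no level and no fold can be given. The fitted log2 change was -0.16 with an interval from -1.32 to 1.01, and changes of that size were not detectable for a signal this dim.

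Irx3, an Iroquois homeodomain factor of the intermediate and dorsal tube, was well measured and was not called. Wild-type values were 2.23, 2.20 and 2.13 and knockout values 2.31, 2.12 and 1.96, and the arrays overlapped. Its log2 change was -0.04 ± 0.10 (SE), with an interval from -0.26 to 0.17 (limma, adjusted p = 0.788). The interval does not reach the log2 changes of the members called higher. Under quantile normalization the sign turned, to a log2 change of 0.02, and the probe was again not called.

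**Figure D2:**
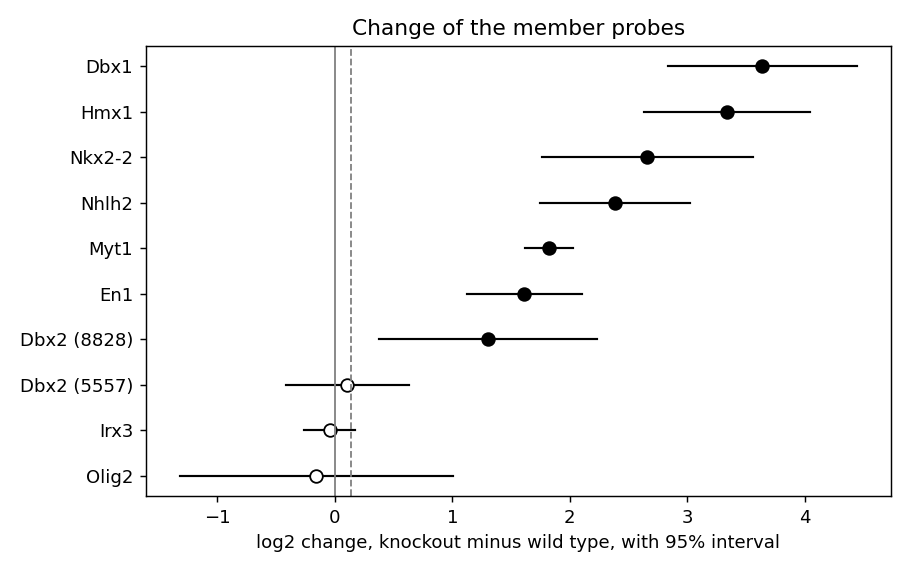
Log2 change (knockout minus wild type) of the 10 member probes with its 95% interval from limma. Filled points are called at adjusted p under 0.05, the solid line marks 0 and the dashed line the median of all probes, 0.14. The 7 filled points have intervals above 0, and the intervals of Irx3, Olig2 and Dbx2 probe 5557 include 0.

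En1, engrailed, is a repressor that marks a class of ventral interneurons once they have left the progenitor zone. It read 0.337, 0.271 and 0.401 in wild type and 0.893, 1.24 and 0.945 in the knockout. Both genotypes lay above the dim limit on every array, and the lowest knockout value was 2.23 times the highest wild-type value. En1 was 3.06-fold higher in the knockout (log2 change 1.61 ± 0.22, SE, limma, adjusted p = 2.65e-04).

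Hmx1, a homeodomain factor of sensory and sympathetic ganglia, eye and ear, read 0.0859, 0.200 and 0.107 in wild type and 1.09, 1.38 and 1.26 in the knockout. As for Dbx1, all wild-type values were under the dim limit, and every knockout value was at least 5.05 times that limit. The knockout mean was at least 5.71-fold above the limit, and the log2 change was 3.34 ± 0.32 (SE, limma, adjusted p = 2.47e-05).

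Nhlh2 encodes a helix-loop-helix factor that appears in newly formed neurons. It read 0.171, 0.228 and 0.115 in wild type and 0.807, 0.904 and 0.877 in the knockout. Only wild-type array 2 reached the dim limit, and the knockout arrays were close to each other. The knockout mean was at least 3.91-fold higher (log2 change 2.39 ± 0.29, SE, limma, adjusted p = 1.09e-04).

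Myt1 encodes a zinc finger factor that favours neuronal differentiation against Notch signalling. It read 1.48, 1.82 and 1.63 in wild type, well above the dim limit, and 5.58, 5.88 and 5.92 in the knockout. The knockout arrays differed from each other by 1.06 times at most. Myt1 was 3.54-fold higher, and its log2 change of 1.82 ± 0.09 had the smallest error of the 10 probes (limma, adjusted p = 4.03e-07).

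The 7 probes did not follow a shared order among the knockout arrays. The highest value was on array 2 for 4 of them, on array 3 for 2 and on array 1 for 1. The calls of Dbx1, Hmx1, Nkx2-2, Nhlh2 and En1 were kept in all 13 alternative settings that retained them, including each left-out array, and that of Myt1 in all 14. The largest adjusted p among them was 0.0112, for Nkx2-2. The filter on the mean at the dim limit, counted among these settings, retained Dbx1, Hmx1, Nkx2-2 and Nhlh2 through their knockout signal alone. For those genes that setting is therefore no check of the calls. The sizes of the log2 changes depended on how low values were treated where wild type was under the dim limit. With 0.5 added to the intensities in place of the floor they were 1.68 for Dbx1, 1.47 for Hmx1, 1.02 for Nhlh2 and 0.90 for Nkx2-2. En1, whose wild-type values were just above the limit, went to 0.86.

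The 300 bases around the annotated starts of all 10 genes, called or not, from 250 before to 50 after, were searched for 3 motifs on both strands. The windows come from RefSeq on GRCm38.p6. They cover the 7 called genes, Olig2 and Irx3, which were not called, and Nkx6-1, which no probe measured, with 12 windows in all, since Myt1 has 3 starts. The homeodomain motif TAATTA was found in 0 of the 12 windows and in 5.29% of 32851 windows of the same length. The motif GCGTGGG, which WT1 and EGR zinc fingers bind, was in 0 of the 12 and in 5.04% of all. The E-box CAGCTG, a core bound by helix-loop-helix factors, occurred in the windows of En1 and Nhlh2 and in 16.3% of all. Its first base is base 36 after the start in En1 and base 45 in Nhlh2, counting the start as base 1. A match is a description of letters, not of a bound site. The windows of Dbx1, as a called member without a match, and of En1 and Nhlh2, the members with an E-box, are shown in reading direction with the E-box in capitals.
Dbx1 (chr7:49636786-49637085, minus strand): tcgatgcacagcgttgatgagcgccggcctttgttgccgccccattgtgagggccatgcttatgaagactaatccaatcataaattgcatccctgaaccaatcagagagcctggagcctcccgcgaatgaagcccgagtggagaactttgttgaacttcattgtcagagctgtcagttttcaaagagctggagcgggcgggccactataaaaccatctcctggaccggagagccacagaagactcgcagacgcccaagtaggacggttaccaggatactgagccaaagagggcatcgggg
En1 (chr1:120602237-120602536, plus strand): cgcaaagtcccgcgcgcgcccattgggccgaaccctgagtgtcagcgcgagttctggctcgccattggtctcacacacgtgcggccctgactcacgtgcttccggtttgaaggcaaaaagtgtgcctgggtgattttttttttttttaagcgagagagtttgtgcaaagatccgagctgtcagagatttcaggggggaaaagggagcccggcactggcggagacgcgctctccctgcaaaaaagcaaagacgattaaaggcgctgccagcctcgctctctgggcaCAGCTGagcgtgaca
Nhlh2 (chr3:102009895-102010194, plus strand): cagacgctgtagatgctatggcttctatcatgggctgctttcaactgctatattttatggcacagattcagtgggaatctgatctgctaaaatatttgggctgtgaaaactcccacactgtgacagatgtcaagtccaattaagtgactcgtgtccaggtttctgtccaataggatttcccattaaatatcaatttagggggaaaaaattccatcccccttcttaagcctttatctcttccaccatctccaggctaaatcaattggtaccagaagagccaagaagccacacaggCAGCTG

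The other measured probes of the same gene families were compared in the same fit. The families were chosen after the members' values were seen, and differences between members and relatives were not tested. Of 17 such probes, from 16 genes, 3 were called higher and 0 lower, beside 17.3% and 12.1% of all probes. The share called higher was near that of all probes, and 6 of the 17 lay under the dim limit in both genotypes. The median log2 change of the 17 was 0.20. At an unadjusted p under 0.05 the counts were 3 and 0 as well. The 3 were Irx5, Nkx2-5 and 1 of 2 Myt1l probes. Irx5, which lies beside Irx3 in the same Iroquois cluster, rose 2.79-fold, from 0.449 ± 0.0184 to 1.26 ± 0.148 (SD, n = 3 each). Its log2 change was 1.48 ± 0.17 (limma, adjusted p = 6.55e-05), beside the -0.04 of Irx3. The Irx1, Irx4 and Irx6 probes had log2 changes of 0.20, 0.26 and 0.44 and were not called.

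Among the NK factors, the cardiac gene Nkx2-5 was at least 3.01-fold higher, with a log2 change of 2.35 ± 0.39 (limma, adjusted p = 8.68e-04). Nkx2-4, Nkx2-6, Nkx6-2 and Nkx6-3 lay under the dim limit in both genotypes. Nkx6-2 and Nkx6-3 are the measured relatives of Nkx6-1. En2, the paralog of En1, read 0.393 ± 0.0864 in wild type and 0.285 ± 0.112 in the knockout (SD, n = 3 each). Its log2 change was -0.51, with an interval from -1.26 to 0.23. That interval does not overlap the interval of En1, from 1.12 to 2.10. Hmx3 had a log2 change of 0.14, with an interval from -0.17 to 0.45, against 2.63 to 4.05 for Hmx1. Nhlh1, expressed like Nhlh2 in newborn neurons, had a log2 change of -0.25, with an interval from -0.65 to 0.15, against 1.75 to 3.02 for Nhlh2. Olig1 was under the dim limit in both genotypes, like Olig2, and Olig3 had a log2 change of 0.15 and was not called.

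**Figure D3:**
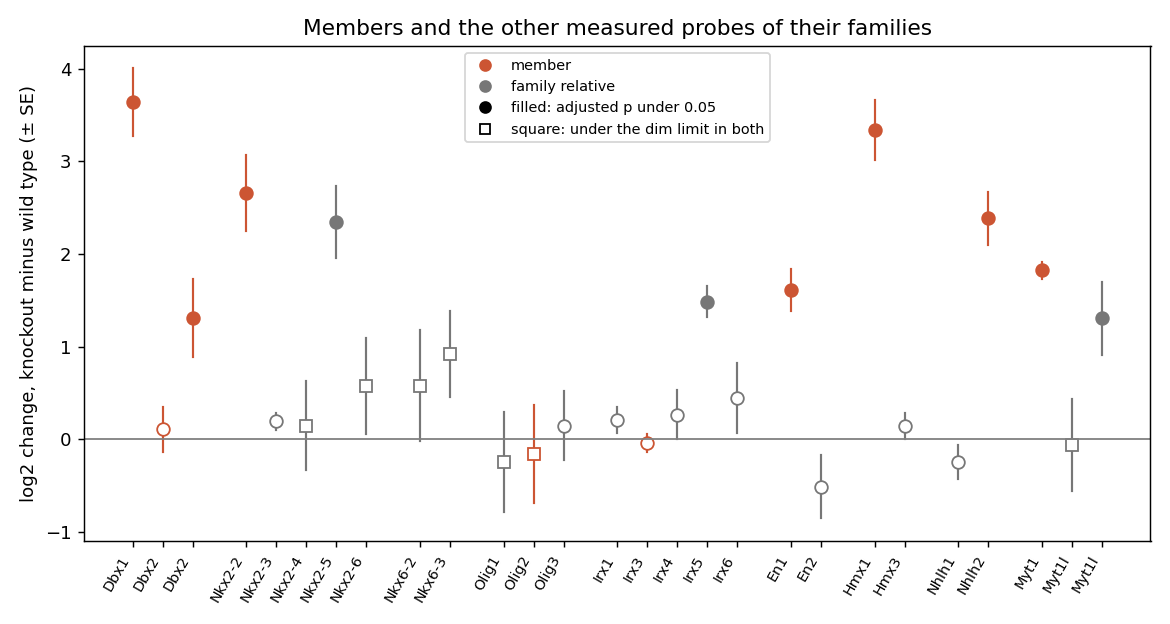
Log2 change (knockout minus wild type, ± SE from limma) of the members, in orange, and of the other measured probes of their gene families, in grey. Filled symbols are called at adjusted p under 0.05 and squares lie under the dim limit in both genotypes. Irx5, Nkx2-5 and 1 Myt1l probe are the 3 called relatives, while En2, Hmx3 and Nhlh1 stay near or below 0.

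The label of the group was checked against other genes that define neural progenitors. Sox2, which marks neural progenitors throughout the tube, lay under the dim limit in both genotypes (0.172 ± 0.0409 and 0.200 ± 0.0415, SD, n = 3 each), and Sox1, also pan-neural, had a log2 change of 0.44 and was not called (limma, adjusted p = 0.125). Of 16 patterning factors of the tube other than the members, 4 were called higher and 0 lower, and 7 were under the dim limit in both genotypes. Beside Irx5, the 4 were Dmrt3, Sox11 and Gsx2, with log2 changes of 0.46, 0.33 and 0.31. The count of 4 fell to 1 without wild-type array 2 or 3 and to 2 without wild-type array 1, without knockout array 2 or without an intensity trend. The median log2 change of that list was 0.18, close to the 0.14 of all probes. The dorsal factors Pax3 and Zic2, which somites and neural crest also express, had log2 changes of -0.12 and -0.14 and were not called. Of the 12 patterning factors not called, 7 were thus too dim to be read. Of the 9 above the dim limit in at least 1 genotype, 4 were called higher. The list does not settle the label, and the members are referred to here by name.

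Signalling centres of the tube gave a mixed picture. Of 11 floor plate and roof plate genes, 4 were called lower and 1 higher. The roof plate gene Lmx1a was 2.99-fold lower, Msx1 1.85-fold, Rspo1 1.64-fold and Msx2 1.21-fold lower. These 4 genes are also expressed outside the neural tube, Rspo1 in the gonad among other sites. Foxa2, a floor plate and endoderm factor, was at least 1.45-fold higher (log2 change 1.46 ± 0.38, SE, limma, adjusted p = 0.0127). Its call was lost without wild-type array 2, where 0 genes of the list were called higher. Shh and Wnt3a were under the dim limit in both genotypes.

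Of 16 proneural and neurogenesis genes, 6 were called higher and 0 lower, with a median log2 change of 0.55. Elavl4, a neuronal RNA-binding protein, rose 1.77-fold, the Notch ligand gene Dll3 1.49-fold, Ebf1 1.47-fold and Insm1 1.34-fold. The proneural factor Neurog1 was at least 1.89-fold higher. The count of 6 fell to 3 without wild-type array 2. Of 18 factors that mark classes of spinal neurons, 3 were called higher and 2 lower, shares near the 17.3% and 12.1% of all probes, and 7 were under the dim limit in both genotypes. Onecut2 rose 2.25-fold, Isl1, a factor of motor and sensory neurons, 1.89-fold and Foxd3 1.25-fold, while Gata2 fell 1.55-fold and Foxp2 2.18-fold. Without any single wild-type array, 1 of these factors was called lower. Evx1, which is switched on in neurons descending from Dbx1-positive progenitors, had a log2 change of 0.35 and was not called (limma, adjusted p = 0.267). Evx2 was under the dim limit in both genotypes.

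Some markers of other cell types were also called. Of 13 neuron structure genes, 9 were called higher and 0 lower, and their summed intensity was 33.9 to 34.6 on the wild-type arrays and 63.1 to 66.0 on the knockout arrays. Dcx, Tubb3, Elavl3 and Stmn2 were 3.32-fold, 3.32-fold, 2.73-fold and 2.60-fold higher. Of 12 neural crest and ganglion genes, 4 were called higher and 0 lower, with summed intensities of 36.8 to 37.4 and 48.0 to 50.3. Sox10, the factor of crest and glia, rose 2.31-fold and Th, tyrosine hydroxylase of sympathetic neurons, 2.19-fold. Much of the rise in the sum lies in Sox10 (means of 5.84 and 13.5). Prph rose 1.47-fold and Ret 1.33-fold. The other 8 were not called, among them the sympathetic genes Dbh, Phox2a and Hand2, with log2 changes of -0.04, 0.10 and 0.57. The part of these cells in the members' increases was not tested. In the 5 lists with 0 genes called lower, 0 were lower at an unadjusted p under 0.05 as well (limma).

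Of 18 somite and muscle genes, 10 were called higher and 1 lower, with summed intensities of 58.4 to 60.5 in wild type and 77.5 to 86.7 in the knockout. Tnnc2, Mstn, Myh3 and the dermomyotome factor Dmrt2 were 19.4-fold, 12.5-fold, 7.27-fold and 6.30-fold higher. Myog was under the dim limit in both genotypes. Of 11 pancreatic endocrine genes, 5 were called higher and 0 lower, with summed intensities of 7.81 to 7.97 and 23.9 to 24.8. Pyy and Sst rose 10.6-fold and 4.09-fold, Gcg was at least 13.3-fold higher and Chga rose 1.34-fold. Pdx1, which defines the pancreatic bud, was under the dim limit in both genotypes, as were Pcsk1 and Chgb. What these tissues contribute to the signal of En1, Nkx2-2 and Myt1, which they also express, was not tested.

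The tissue itself was recognisable by its markers. Of 13 urogenital ridge markers, 7 were called lower and 3 higher in the knockout. The 7 include Wt1, the deleted gene itself, and the 3 were Gata3, Osr1 and Tcf21. Summed intensities were 120 to 128 in wild type and 67.9 to 71.4 in the knockout. All of that fall lies in Wt1 (means of 42.3 and 14.7) and Amhr2 (30.6 and 0.480). The sum of the other markers did not fall. Among these, Gata3 (9.64 and 16.7) and Tcf21 (19.7 and 25.5) rose by more than the markers called lower fell. Amhr2 was 64.1-fold lower, Muc16 at least 8.55-fold, Lhx9 3.78-fold and Nr0b1 3.52-fold, while Gata4 had a log2 change of -0.06 and was not called. Higher signal of Dbx1, Hmx1, Nkx2-2, Nhlh2, Myt1 and En1 and lower signal of 7 ridge markers, Wt1 included, were measured on the same arrays.

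**Figure D4:**
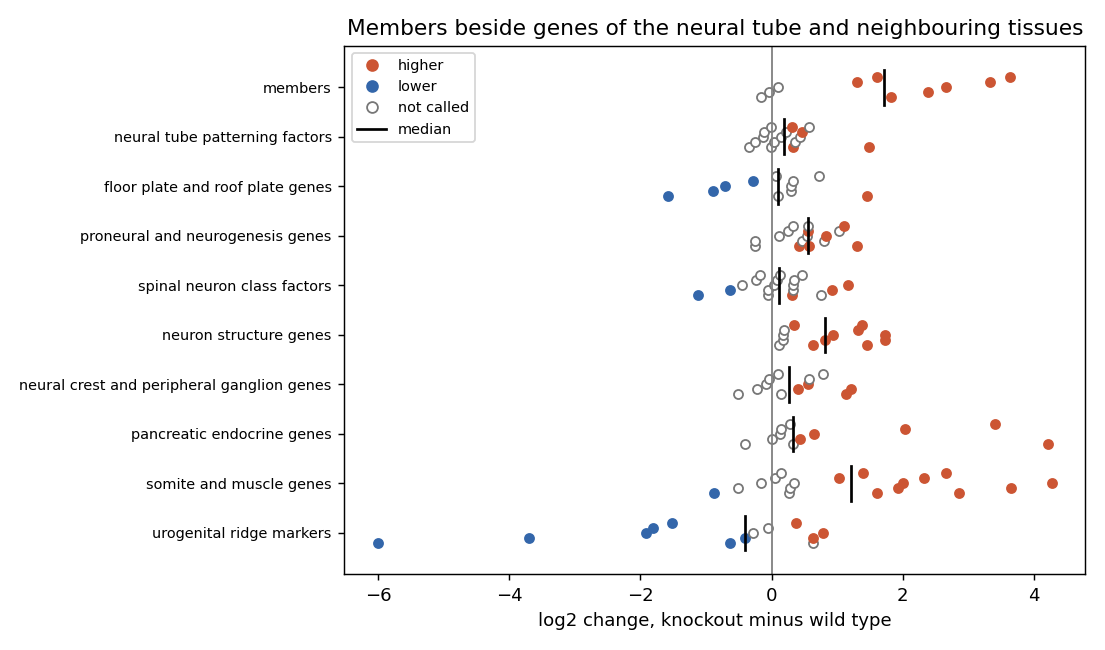
Log2 change (knockout minus wild type) of the 10 member probes and of 1 probe per gene for each of 9 gene lists. Orange points are called higher, blue points lower and open points not called, and black bars are medians. The members have a median of 1.72, beside 0.18 for the other neural tube patterning factors, 0.82 for neuron structure genes and 1.21 for somite and muscle genes.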

How the data were processed

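Total RNA was labelled with biotin for CodeLink Mouse 20k arrays of 1 colour, per the labels. The deposited table holds linear intensities, and how the authors scaled them is not given in the sources used here. Each array held 20077 to 20099 values, of which 153 to 246 were at or below 0. A floor of 0.0811, the 5th percentile of the positive intensities, was set and log2 was taken, with no further normalization. Knockout and wild type were compared by limma 3.58.1 under R 4.3.3 (lmFit, eBayes with an intensity trend), 3 arrays against 3, with Benjamini-Hochberg adjustment over 20088 probes, two-sided. The fit was also run on simulated data with normal noise. No floor was set on these, so they do not test the fit for probes with values at the floor. The number of arrays limits the precision. Where the lower genotype's mean lay under the dim limit of 0.217, the fold is a lower bound against that limit or, on arrays where it was brighter, the probe's own signal (means of log2 values). Every other fold is the antilog of the fitted log2 change. Means ± SD use intensities before the floor. Gene names come from GEO's annotation of the platform, possibly outdated, with symbols updated by Entrez identifier to RefSeq (GRCm38.p6). It gave 1 symbol for 15120 probes and several for 38, and 5131 were not listed. Of the named probes, 56 had no match in the RefSeq table.

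List genes were represented by their brightest probe with values on all arrays. Named genes are all members and, from each list, up to 4 called genes with the largest change whose higher mean exceeded the median probe, or the 2 brightest where fewer than 2 passed. Other list genes and the family relatives were chosen for naming after seeing their values. The members and lists were chosen with earlier results of these data known. Alternatives were other filters, scalings and treatments of low values, no intensity trend, the replicate number as a block, and leaving out each array.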

Additional observations from a re-analysis of the deposited data

How the results depend on the processing

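Directions of the 7 member probes called higher held in every alternative run on them, and Dbx2 probe 8828 was the only member whose call was lost in any. The count of member probes called higher was 6 to 7 with each array left out and in all other settings but 1. A filter at the median probe left 2 member probes, of which 1 was called. The median log2 change of the member probes was 0.89 with the filter at the median and 0.88 with 0.5 added to the intensities in place of the floor. It was 1.64 to 1.78 with each array left out. With the filter at the 25th percentile it was 2.10, but that filter kept 4 of its 8 member probes through their knockout signal alone. The 2.10 is thus raised by the selection and is no check of the 1.72. The order of Dbx1 and Hmx1 turned without wild-type array 2, with log2 changes of 3.40 and 3.69. Adding 0.5 compresses changes of dim probes. Signs of uncalled probes turned for Irx3, to 0.024 under quantile normalization, and when an array was left out for Irx3 (-0.10 to 0.016), Olig2 (-0.39 to 0.23) and Dbx2 probe 5557 (-0.055 to 0.27).

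Quantile normalization lowered the median log2 change of all probes from 0.14 to 0.04 and gave 2794 probes higher and 2765 lower, against 3469 and 2421. With each array left out, 2481 to 4059 probes were called higher and 1688 to 2807 lower. List counts equalled the reported ones or stayed within 1.5 times of them in 231 of 252 comparisons. These comparisons include counts of 0 against 0, for which agreement says little. Under the filter at the median probe, 1 spinal neuron factor was lower, 3 pancreatic endocrine genes were higher and 0 somite and muscle genes were lower. Quantile normalization gave 2 somite and muscle genes lower, and 2 floor and roof plate genes were higher under it, under median centring, with 0.5 added and with the replicate block. Without an intensity trend 2 patterning factors were higher. Leaving out each array gave 1 to 4 patterning factors higher and 0 to 1 lower, 0 to 3 floor and roof plate genes higher, 3 to 6 proneural genes higher, 1 to 2 spinal neuron factors lower and 1 to 2 muscle genes lower. The cause of these shifts was not tested.

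Replicate numbers were shared between the genotypes, but the deviations of same-numbered arrays from their group means correlated at only -0.01 to 0.00. No shared deviation was thus seen, which cannot tell whether same-numbered arrays were handled together. With the replicate block the same 7 member probes were called, and 3204 probes were higher and 2328 lower over the array. Dim signal limits the statements on Olig2 and on Dbx2 probe 8828, and the sizes of change of Dbx1, Hmx1, Nkx2-2 and Nhlh2, whose wild-type means lay under the limit of 0.217.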
